A study of Homo sapiens with 8 samples.

Results

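Small nucleolar and small Cajal body RNAs guide the chemical modification of other RNAs, and most of them in human cells are cut from the introns of longer host genes. The spliceosomal small nuclear RNAs, which have genes of their own, are among their targets. The genes described here were chosen by symbol: every named row whose platform symbol begins with SNORA, SNORD, SCARNA, RNU or RNVU and a digit, or with SNHG and a number, and GAS5. The rule found 33 of the 14884 named genes. They were 23 small Cajal body RNAs (SCARNA symbols) and 10 host genes (GAS5, SNHG5, SNHG8, SNHG10, SNHG15, SNHG16, SNHG17, SNHG18, SNHG20 and SNHG33). It found 0 SNORD, 0 SNORA and 0 RNU or RNVU symbols, so the nucleolar box C/D and box H/ACA RNAs and the spliceosomal RNAs themselves were not analysed here, and 32128 rows without a symbol here may include some of them. By box type, which was assigned from general knowledge and not from the files, 13 of the Cajal body RNAs were box H/ACA RNAs, 5 were box C/D RNAs (SCARNA2, SCARNA7, SCARNA9, SCARNA9L and SCARNA17), 4 carried both kinds of box (SCARNA5, SCARNA6, SCARNA10 and SCARNA12) and 1, SCARNA27, was given no type.

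The study measured RNA on Affymetrix Human Gene 2.0 ST arrays in NCI-H929 and MM1.S, established human multiple myeloma lines. Each line carried a short hairpin against SIRT6 (shSIRT6), an NAD-dependent deacetylase of chromatin, or a scramble hairpin, so all 8 arrays come from hairpin-carrying cells. The groups were NCI-H929 with shSIRT6, NCI-H929 with scramble, MM1.S with shSIRT6 and MM1.S with scramble, with 2 arrays each. The labels do not say how many hairpin sequences were used, how the cells were selected, or whether the arrays of each pair were separate cultures. The p-values therefore cover no more than array-to-array spread, which may be purely technical.

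Small Cajal body RNAs pair with spliceosomal RNAs in the Cajal body and direct their modification. A box C/D RNA binds fibrillarin and directs ribose methylation, a box H/ACA RNA binds dyskerin and directs pseudouridylation, and an RNA with both boxes can direct both. Most lie in introns and are released when the spliced intron is trimmed. The SNHG genes and GAS5 are hosts whose introns carry such RNAs while the spliced exons code for little or no protein, and several of their spliced transcripts are short-lived because translation exposes them to nonsense-mediated decay.

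All 33 genes had 1 row each and passed the level filter, a mean over the 8 arrays above 3.045 on the log2 scale. Array medians over all rows lay between 3.88 and 3.97. The lowest group means of SNHG18 (3.75), SCARNA20 (3.925) and SCARNA23 (3.93) were near these medians, and that of SCARNA14 was 4.24. Differences of these genes rest on low signals that could not be set against background. Correlations across rows were 0.989 to 0.992 between arrays of 1 group, 0.985 to 0.989 between constructs of 1 line and 0.942 to 0.950 between lines. Of the plasma cell markers, 6 of 9 had a row, with mean levels of 8.55 to 11.5, while 3 of 7 T and NK cell markers lay between 3.96 and 4.96 and 4 of 5 myeloid markers between 2.70 and 4.42. Of 5 stromal markers, 1 had a row: VIM, which is not specific to stroma, averaged 8.85. SIRT6 read 6.25 and 6.31 with shSIRT6 in NCI-H929, against 6.53 and 6.97 with scramble. In MM1.S it read 5.60 and 5.78 with shSIRT6, against 6.09 and 5.88 with scramble. The constructs did not overlap in either line, yet the differences of −0.47 ± 0.16 and −0.295 ± 0.16 (log2, limma estimate ± SE) gave limma adjusted p-values of 0.276 and 0.355. A log2 difference of 1 is a doubling of the array signal. Levels are given per gene across arrays and are never ranked between genes, because each gene has its own probes.

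**Figure D1:**
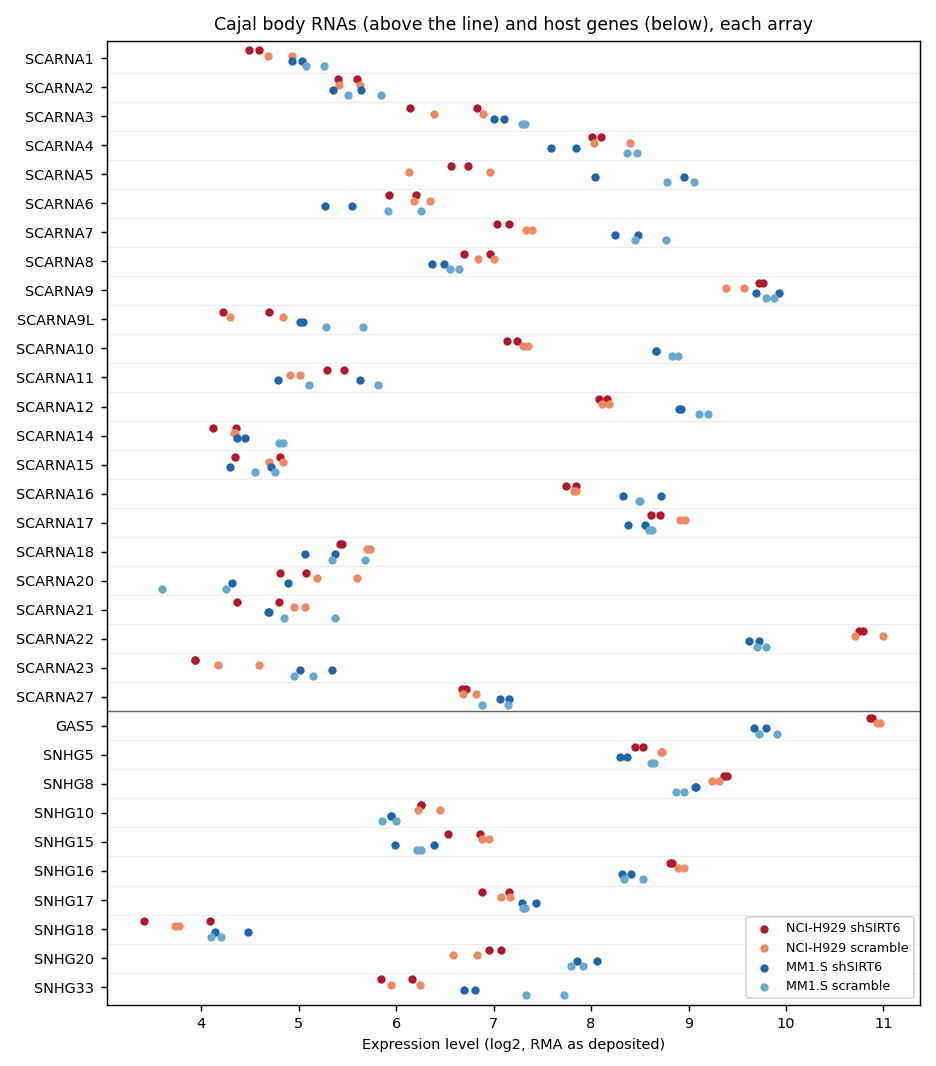
Log2 level (horizontal axis, RMA values as deposited) of the 23 Cajal body RNAs, above the line, and the 10 host genes, below it, with 1 point per array and colours for the 4 groups. The red NCI-H929 points and blue MM1.S points stand apart for genes such as SCARNA5, SCARNA10, SCARNA22 and GAS5, while points of the 2 constructs within a line mostly lie close together.

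The first comparison asked how the lines differ, once between the shSIRT6 arrays and once between the scramble arrays, which share no array. The 4 Cajal body RNAs with both box types had the lowest median line difference of the classes, −1.135 with shSIRT6 and −1.2725 with scramble: SCARNA5, SCARNA10 and SCARNA12 were lower there with both constructs, by 1.73 to 5.19 times, and SCARNA6 was not. The box C/D RNA SCARNA7 and the host genes SNHG20 and SNHG33 were lower as well. GAS5, SCARNA22, SNHG16, SNHG15 and SNHG8 were higher in NCI-H929 with both constructs, GAS5 and SCARNA22 by 2.14 to 2.20 times. A gene was called at a limma adjusted p below 0.05 (Benjamini-Hochberg over 12734 genes), from a fit of 4 group means over all 8 arrays.

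With shSIRT6, 17 of the 33 genes were called between the lines, a share of 51.5% beside 37.9% of all genes tested. Of these, 7 were higher in NCI-H929 (18.4% of all genes were) and 10 lower (19.5%). With scramble, 19 were called, a share of 57.6% beside 38.3%, 8 of them higher (beside 20% of all genes) and 11 lower (beside 18.3%). With both constructs and 1 sign, 13 of the 33 were called, which is 39.4% beside 28.8% of all genes. Among those 13, 5 were higher (15.2%, beside 14.5%) and 8 lower (24.2%, beside 14.3%), so the share called higher was near that of all genes. Another 4 genes were called with shSIRT6 only and 6 with scramble only, 30.3% together, beside 18.1% of all genes. No member passed the test of the difference between the line contrasts (lowest adjusted p 0.272), so none of these 10 is shown to differ between constructs. Over the 33 genes the line differences of the 2 constructs correlated at Pearson r = 0.908 (Spearman rho 0.924), with 1 sign in 30. This describes genes of the same 2 lines on separate arrays, and genes are not independent. The median line difference of the 33 genes was −0.07 with shSIRT6, against 0 over all genes, and −0.205 with scramble, against 0.03.

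SCARNA10, which carries both box types and guides both kinds of modification in the U5 spliceosomal RNA, had the lowest p of the set. With shSIRT6 it read 7.24 and 7.14 in NCI-H929 and 8.67 and 8.67 in MM1.S. The scramble arrays read 7.30 and 7.35 in NCI-H929 and 8.89 and 8.83 in MM1.S. All 4 NCI-H929 arrays lay more than a log2 unit below every MM1.S array. The difference was −1.48 ± 0.093 with shSIRT6 (limma adjusted p = 2.75e-05) and −1.535 ± 0.093 with scramble (limma adjusted p = 2.07e-05), or 2.79 and 2.90 times lower.

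SCARNA12, which also carries both box types, read 8.08 and 8.16 in NCI-H929 with shSIRT6, against 8.90 and 8.92 in MM1.S. Its scramble arrays read 8.11 and 8.18 in NCI-H929, against 9.11 and 9.20 in MM1.S. The lines did not overlap with either construct. It was lower by −0.79 ± 0.094 with shSIRT6 (limma adjusted p = 0.000484) and by −1.01 ± 0.094 with scramble (limma adjusted p = 0.000161).

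SCARNA5 had the most negative line difference of the 33 genes and the widest spread between arrays. With shSIRT6 it read 6.56 and 6.74 in NCI-H929 and 8.95 and 8.04 in MM1.S. The scramble values were 6.13 and 6.96 in NCI-H929 and 9.06 and 8.78 in MM1.S. The 2 NCI-H929 scramble arrays differ by 0.83, yet the lines stayed apart. The differences were −1.845 ± 0.34 with shSIRT6 (limma adjusted p = 0.00407) and −2.375 ± 0.34 with scramble (limma adjusted p = 0.00121).

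SCARNA6, the fourth RNA with both box types, went the other way. It read 6.20 and 5.93 in NCI-H929 with shSIRT6, against 5.27 and 5.55 in MM1.S. With scramble it read 6.18 and 6.35 in NCI-H929, against 6.25 and 5.92 in MM1.S, where the lines overlapped. The difference was 0.655 ± 0.16 with shSIRT6 (limma adjusted p = 0.0162) and 0.18 with scramble, which was not called. The shSIRT6 call was lost without replicate 1 of MM1.S shSIRT6 (adjusted p 0.0971) and without replicate 1 of NCI-H929 shSIRT6 (adjusted p 0.0913).

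Of the 5 box C/D Cajal body RNAs, SCARNA7 was lower in NCI-H929 with both constructs, and SCARNA9, SCARNA9L and SCARNA17 were called with scramble only. Of all genes, 37.9% were called with shSIRT6, 38.3% with scramble and 28.8% with both constructs and 1 sign. SCARNA7, a guide for ribose methylation of the U1 spliceosomal RNA, read 7.03 and 7.16 in NCI-H929 with shSIRT6, against 8.48 and 8.25 in MM1.S. Its scramble arrays read 7.33 and 7.39 in NCI-H929, against 8.77 and 8.45 in MM1.S. The difference was −1.27 ± 0.14 with shSIRT6 (limma adjusted p = 0.000323) and −1.25 ± 0.14 with scramble (limma adjusted p = 0.000362), nearly the same value from separate arrays.

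SCARNA9 and SCARNA2 both guide ribose methylation of the U2 spliceosomal RNA. SCARNA9 read 9.72 and 9.76 in NCI-H929 and 9.69 and 9.93 in MM1.S with shSIRT6, where the lines overlapped. Its scramble arrays read 9.38 and 9.57 in NCI-H929 and 9.79 and 9.88 in MM1.S, a difference of −0.36 ± 0.12 with a limma adjusted p of 0.0496. That call was lost without any 1 of the 4 scramble arrays (adjusted p 0.063 to 0.241) or of the 2 NCI-H929 shSIRT6 arrays (0.0682). SCARNA9L, a copy of SCARNA9 at another locus whose probes may not separate it from SCARNA9, differed by −0.57 ± 0.23 with shSIRT6 (not called) and by −0.905 ± 0.23 with scramble (limma adjusted p = 0.0164). The SCARNA9L call was lost without replicate 1 of MM1.S scramble (adjusted p 0.1) or replicate 2 of NCI-H929 scramble (0.096). SCARNA17 was higher by 0.325 ± 0.10 with scramble (limma adjusted p = 0.0394), and this was lost without any 1 of the 4 scramble arrays (adjusted p 0.1 to 0.158). SCARNA2, the 1 Cajal body RNA here that lies in no other annotated gene, differed by 0.005 with shSIRT6 and −0.15 with scramble and was not called.

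Among the 13 box H/ACA Cajal body RNAs, 2 were called higher and 3 lower in NCI-H929 under each construct. Of all genes, 18.4% were higher and 19.5% lower with shSIRT6, and 20% and 18.3% with scramble. The shares of the 13 were near these. The median difference of the 13 was 0.08 with shSIRT6 and −0.205 with scramble. SCARNA22, also known as ACA11 and described in myeloma for its place in an intron of NSD2, was the 1 Cajal body RNA higher with both constructs. With shSIRT6 it read 10.75 and 10.79 in NCI-H929, against 9.72 and 9.62 in MM1.S. On the scramble arrays it read 10.71 and 11.00 in NCI-H929, against 9.70 and 9.80 in MM1.S. The lines did not overlap, with differences of 1.10 ± 0.12 with shSIRT6 (limma adjusted p = 0.00033) and 1.105 ± 0.12 with scramble (limma adjusted p = 0.000336).

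SCARNA23 and SCARNA16 were the box H/ACA RNAs lower in NCI-H929 with both constructs. SCARNA23, which lies within POLA1 on the X chromosome, read 3.93 and 3.93 in NCI-H929 and 5.34 and 5.01 in MM1.S with shSIRT6. With scramble it read 4.59 and 4.17 in NCI-H929 and 5.15 and 4.95 in MM1.S. Its difference was −1.245 ± 0.17 with shSIRT6 (limma adjusted p = 0.000965) and −0.67 ± 0.17 with scramble (limma adjusted p = 0.0172). The NCI-H929 values of SCARNA23 lie near the array medians over all rows (3.88 to 3.97), so both differences rest on low signals. The scramble call was lost without replicate 1 of MM1.S scramble (adjusted p 0.098) and without replicate 2 of NCI-H929 scramble (0.102). SCARNA16 read 7.74 and 7.84 in NCI-H929 with shSIRT6, against 8.72 and 8.33 in MM1.S, a difference of −0.735 ± 0.14 (limma adjusted p = 0.00404). Its scramble arrays read 7.82 and 7.84 in NCI-H929, against 8.50 and 8.49 in MM1.S, a difference of −0.665 ± 0.14 (limma adjusted p = 0.00636).

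The other box H/ACA calls came with 1 construct. With scramble, SCARNA20 read 5.19 and 5.60 in NCI-H929 against 4.25 and 3.60 in MM1.S, higher by 1.47 ± 0.27 (limma adjusted p = 0.00403). Its shSIRT6 arrays read 4.81 and 5.07 in NCI-H929 against 4.31 and 4.89 in MM1.S, overlapping and not called. The MM1.S scramble values of SCARNA20 lie near the array medians over all rows (3.88 to 3.97). SCARNA14 also read low, at 4.34 and 4.35 in NCI-H929 with scramble. SCARNA14 was lower by −0.475 ± 0.11 with scramble (limma adjusted p = 0.0109), a call lost without replicate 1 of MM1.S scramble or either replicate of NCI-H929 scramble (adjusted p 0.0519 to 0.0573). With shSIRT6, SCARNA8, a pseudouridylation guide for the U2 spliceosomal RNA, was higher by 0.40 ± 0.12 (limma adjusted p = 0.0378), and SCARNA1 was lower by −0.44 ± 0.12 (limma adjusted p = 0.0268). SCARNA27, of no assigned type, was lower with shSIRT6 by −0.415 ± 0.12 (limma adjusted p = 0.0284). The SCARNA1 and SCARNA27 calls were lost without any 1 of the 4 shSIRT6 arrays (adjusted p 0.0593 to 0.126), and the SCARNA8 call without any 1 of the 8 arrays other than replicate 2 of NCI-H929 shSIRT6 (0.0509 to 0.181). SCARNA3, SCARNA4, SCARNA11, SCARNA15, SCARNA18 and SCARNA21 were called between the lines with neither construct.

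**Figure D2:**
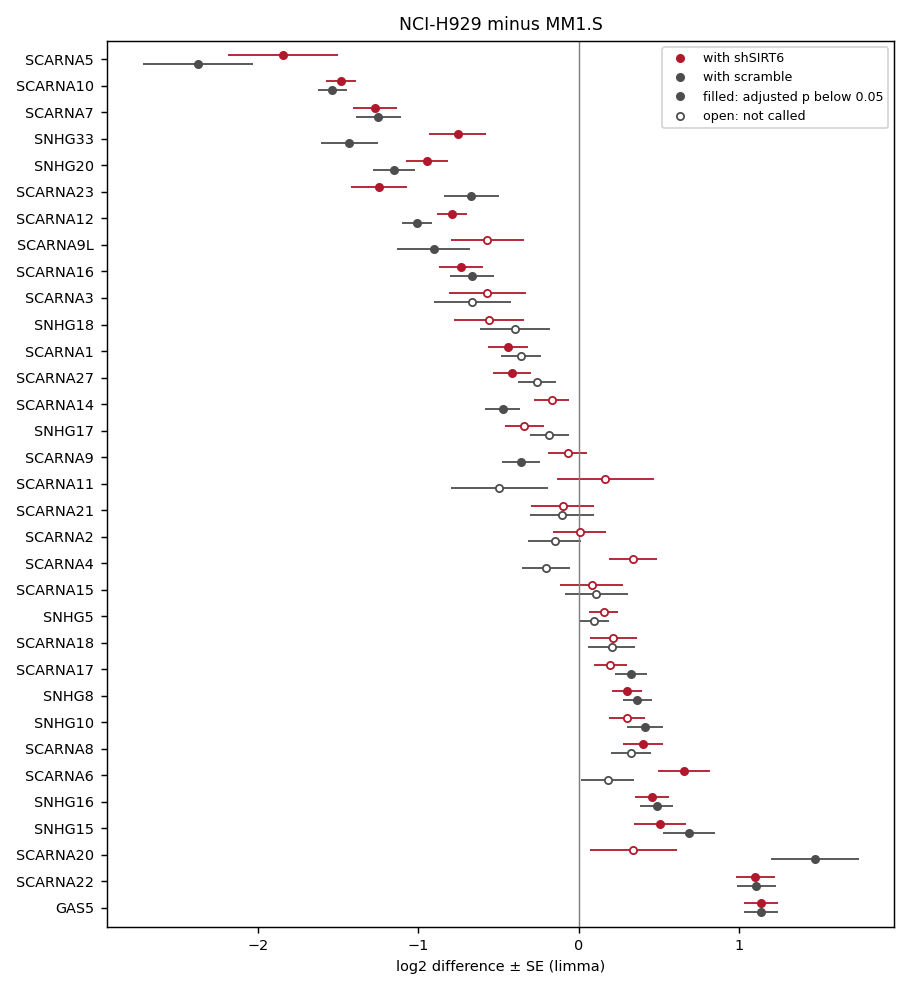
Log2 difference NCI-H929 minus MM1.S of the 33 genes (horizontal axis, limma estimate ± SE), with shSIRT6 in red and with scramble in grey. Filled points passed an adjusted p of 0.05. SCARNA5, SCARNA10 and SCARNA7 sit far below 0 and SCARNA22 and GAS5 near 1.1 with both constructs.

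The host genes differed both ways between the lines. With shSIRT6, 4 of the 10 were called higher (beside 18.4% of all genes) and 2 lower (beside 19.5%) in NCI-H929. With scramble 5 were called higher (beside 20%) and 2 lower (beside 18.3%). The share called lower was near that of all genes. The same 4 higher genes (GAS5, SNHG8, SNHG15 and SNHG16) and 2 lower genes (SNHG20 and SNHG33) were called with both constructs. Of all genes, 14.5% were called higher and 14.3% lower with both. GAS5 carries 11 annotated small RNAs within its span, 10 of them box C/D RNAs, and is known as a transcript that accumulates in growth-arrested cells. With shSIRT6 it read 10.86 and 10.88 in NCI-H929, against 9.67 and 9.80 in MM1.S. With scramble it read 10.97 and 10.93 in NCI-H929, against 9.91 and 9.72 in MM1.S. Every NCI-H929 array was above every MM1.S array, and the difference was 1.135 ± 0.11 with either construct (limma adjusted p = 0.000157 with shSIRT6 and 0.000161 with scramble).

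The smaller higher differences belonged to SNHG16, SNHG15 and SNHG8. SNHG16, host of SNORD1A, SNORD1B and SNORD1C, read 8.81 and 8.83 in NCI-H929 and 8.41 and 8.32 in MM1.S with shSIRT6, a difference of 0.455 ± 0.10 (limma adjusted p = 0.0107). The scramble arrays gave 8.89 and 8.95 in NCI-H929 and 8.53 and 8.34 in MM1.S, a difference of 0.485 ± 0.10 (limma adjusted p = 0.00787). SNHG15, host of SNORA9, read 6.86 and 6.53 in NCI-H929 and 5.99 and 6.39 in MM1.S with shSIRT6, higher by 0.505 ± 0.16 (limma adjusted p = 0.0425). The lines lay further apart with scramble: SNHG15 read 6.88 and 6.95 in NCI-H929 and 6.21 and 6.25 in MM1.S, higher by 0.685 ± 0.16 (limma adjusted p = 0.0121). SNHG8, host of SNORA24, read 9.36 and 9.39 in NCI-H929 and 9.07 and 9.08 in MM1.S with shSIRT6, higher by 0.30 ± 0.092 (limma adjusted p = 0.0358). With scramble it read 9.24 and 9.31 in NCI-H929 and 8.87 and 8.95 in MM1.S, higher by 0.365 ± 0.092 (limma adjusted p = 0.0158).

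These 3 calls rest on both arrays of a group. The SNHG16 call was lost with shSIRT6 without replicate 2 of MM1.S shSIRT6 (adjusted p 0.0588), and with scramble without replicate 2 of MM1.S scramble (0.0519) or of NCI-H929 scramble (0.0512). For SNHG15 the shSIRT6 call was lost without replicate 1 of MM1.S shSIRT6 (adjusted p 0.22) or of NCI-H929 shSIRT6 (0.206), and also without any 1 of the 4 scramble arrays (0.0636 to 0.0639). Its scramble call was lost without replicate 1 of MM1.S scramble (0.0589) or replicate 2 of NCI-H929 scramble (0.0636). The SNHG8 call with shSIRT6 was lost without any 1 of the 8 arrays (adjusted p 0.0516 to 0.117), and with scramble without any scramble array other than replicate 2 of MM1.S (0.0517 to 0.094).

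SNHG20 and SNHG33 were the host genes lower in NCI-H929. SNHG20, host of SCARNA16, read 6.95 and 7.08 in NCI-H929 and 7.86 and 8.06 in MM1.S with shSIRT6, a difference of −0.945 ± 0.13 (limma adjusted p = 0.000933). With scramble it read 6.58 and 6.83 in NCI-H929 and 7.79 and 7.92 in MM1.S, a difference of −1.15 ± 0.13 (limma adjusted p = 0.000378). SNHG33, host of SNORA63D and SNORA63E, read 5.84 and 6.16 in NCI-H929 and 6.70 and 6.81 in MM1.S with shSIRT6, a difference of −0.755 ± 0.18 (limma adjusted p = 0.0118). Its scramble arrays read 6.24 and 5.95 in NCI-H929 and 7.72 and 7.33 in MM1.S, further apart than with shSIRT6, with a difference of −1.43 ± 0.18 (limma adjusted p = 0.000585). The SNHG33 call with shSIRT6 was lost without replicate 2 of MM1.S shSIRT6 (adjusted p 0.0619) or replicate 1 of NCI-H929 shSIRT6 (0.0714).

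The remaining 4 hosts gave smaller differences. SNHG10, host of SCARNA13, read 6.25 and 6.25 in NCI-H929 and 5.95 and 5.95 in MM1.S with shSIRT6, which was not called. With scramble SNHG10 read 6.22 and 6.45 in NCI-H929 and 6.0 and 5.85 in MM1.S, higher by 0.41 ± 0.11 (limma adjusted p = 0.0229). That call was lost without replicate 2 of MM1.S scramble (adjusted p 0.119) or replicate 2 of NCI-H929 scramble (0.146). SNHG17, which carries the SNORA71 RNAs, read 6.88 and 7.16 in NCI-H929 and 7.43 and 7.29 in MM1.S with shSIRT6, and 7.17 and 7.08 in NCI-H929 and 7.30 and 7.32 in MM1.S with scramble, and was not called. SNHG18, host of SNORD123, read 3.41 and 4.09 in NCI-H929 and 4.48 and 4.14 in MM1.S with shSIRT6, and 3.73 and 3.77 in NCI-H929 and 4.10 and 4.20 in MM1.S with scramble, and was not called either. SNHG5, host of SNORD50A and SNORD50B, had the smallest line differences of the hosts, at 0.155 with shSIRT6 and 0.09 with scramble.

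The start sites of 4 of these hosts are shown because GAS5, SNHG16 and SNHG8 were all higher in NCI-H929 while SNHG5 gave the smallest differences. SNHG15, also higher there, had no start-site entry. Each run holds 50 bases before and 50 from the annotated start (RefSeq, GRCh38.p14), 5′ to 3′ on the gene's strand, and capitals mark matches to CTTTT or TATAA.
GAS5 (chr1:173868996-173869095, minus strand): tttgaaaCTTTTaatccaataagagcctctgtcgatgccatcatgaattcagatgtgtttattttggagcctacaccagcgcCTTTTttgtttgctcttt
SNHG16 (chr17:76557714-76557813, plus strand): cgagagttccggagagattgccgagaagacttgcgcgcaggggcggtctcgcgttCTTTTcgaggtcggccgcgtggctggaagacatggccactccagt
SNHG8 (chr4:118278712-118278811, plus strand): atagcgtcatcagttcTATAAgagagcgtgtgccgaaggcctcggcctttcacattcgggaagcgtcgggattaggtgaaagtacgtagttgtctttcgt
SNHG5 (chr6:85678684-85678783, minus strand): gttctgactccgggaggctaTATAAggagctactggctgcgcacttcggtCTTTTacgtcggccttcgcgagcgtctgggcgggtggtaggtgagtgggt
Host transcripts of nucleolar RNAs are known for starting with a C followed by a run of pyrimidines, a feature shared with ribosomal protein mRNAs. CTTTT stood on either strand in 4 of the 9 hosts with an entry (GAS5, SNHG5, SNHG16 and SNHG33), beside 19.8% of 35116 promoter windows of the same length. In SNHG5 it began at base 1 of the annotated transcript, in SNHG16 at base 6 and in GAS5 at base 33 and at position −43 before the start. TATAA stood in 2 of the 9 hosts, beside 8.34% of windows, beginning at position −30 from the start of SNHG5 and −34 from that of SNHG8. The motif CACGTG, an E-box, stood in 0 of the 9 hosts and in 2.82% of windows. The windows of SNHG10, SNHG17, SNHG18 and SNHG20, not shown, held none of these motifs. The letters describe these windows only.

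Since most of these RNAs are cut from introns, each was set beside the gene that encloses it in the RefSeq annotation of GRCh38.p14. Genes were matched by span alone, so neither the strand nor whether the gene is the host was checked. SCARNA15, for example, lies within SNHG21 and FSD2, and only FSD2 was tested. Of the 23 Cajal body RNAs, 22 lie within the span of another gene, and for 13 of them, in 12 genes, the enclosing gene was tested. The sign of the line difference was shared by the RNA and its enclosing gene in 8 of 13 pairs with shSIRT6 and in 9 of 13 with scramble. Both were called with 1 sign in the same 4 pairs under each construct: SCARNA22 with NSD2, SCARNA7 with KPNA4, SCARNA12 with PHB2 and SCARNA16 with SNHG20. With scramble, SCARNA5 and ATG16L1 were both called with opposite signs. The RNA was called in 6 of the 13 pairs with shSIRT6 and the enclosing gene in 4, beside 37.9% of all genes. With scramble these were 7 and 6, beside 38.3% of all genes. Across the 13 pairs the differences correlated at r = 0.529 with shSIRT6 and 0.406 with scramble, a description only, as the pairs share arrays and 2 of them share ATG16L1. Probes against an intronic RNA may also read its unspliced precursor, and the part of this in the values was not tested.

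NSD2, a histone methyltransferase overexpressed in the myelomas that join it to the immunoglobulin heavy-chain locus, read 9.11 and 9.03 in NCI-H929 and 7.95 and 7.96 in MM1.S with shSIRT6. Its scramble values were 9.17 and 9.27 in NCI-H929 and 7.84 and 7.85 in MM1.S. NSD2 was higher in NCI-H929 by 1.115 ± 0.093 with shSIRT6 (limma adjusted p = 9.59e-05) and by 1.375 ± 0.093 with scramble (limma adjusted p = 3.62e-05), beside 1.10 and 1.105 for SCARNA22. The line difference of SCARNA22 minus that of NSD2 was −0.142 over all arrays, with a two-sided exact permutation p of 0.111 among 36 relabellings of the lines within construct, of which the smallest possible p is 0.0556.

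KPNA4, a nuclear import receptor, read 7.54 and 7.75 in NCI-H929 and 8.55 and 8.54 in MM1.S with shSIRT6. Its scramble arrays read 7.63 and 7.76 in NCI-H929 and 8.41 and 8.35 in MM1.S. It was lower by −0.90 with shSIRT6 (limma adjusted p = 0.000526) and −0.685 with scramble (limma adjusted p = 0.00195), beside −1.27 and −1.25 for SCARNA7. PHB2, which codes for prohibitin 2 of the inner mitochondrial membrane, differed by −0.605 with shSIRT6 (limma adjusted p = 0.00497) and −0.46 with scramble (limma adjusted p = 0.0167), beside −0.79 and −1.01 for SCARNA12. For SNHG20 and its intronic SCARNA16, the differences were −0.945 and −0.735 with shSIRT6 and −1.15 and −0.665 with scramble. The line difference of SCARNA16 minus that of SNHG20 was 0.348 (two-sided exact permutation p = 0.167).

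ATG16L1, a gene of autophagosome formation, encloses both SCARNA5 and SCARNA6, and these 2 RNAs differed from each other. ATG16L1 read 6.34 and 6.37 in NCI-H929 and 5.88 and 6.11 in MM1.S with shSIRT6, a difference of 0.36 ± 0.13 (limma adjusted p = 0.0587). With scramble it read 6.50 and 6.55 in NCI-H929 and 6.01 and 6.27 in MM1.S, a difference of 0.385 ± 0.13 (limma adjusted p = 0.0458). SCARNA6 thus shared the sign of its enclosing gene, and SCARNA5, at −2.375 with scramble, had the opposite sign. The line difference of SCARNA5 minus that of SCARNA6 was −2.53, with an exact permutation p of 0.0556, the smallest this design can give. The value of SCARNA5 minus SCARNA6 within an array lay between −0.05 and 0.81 in the 4 NCI-H929 arrays and between 2.49 and 3.68 in the 4 MM1.S arrays. The pairs set against each other by permutation were chosen after their values were seen.

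**Figure D3:**
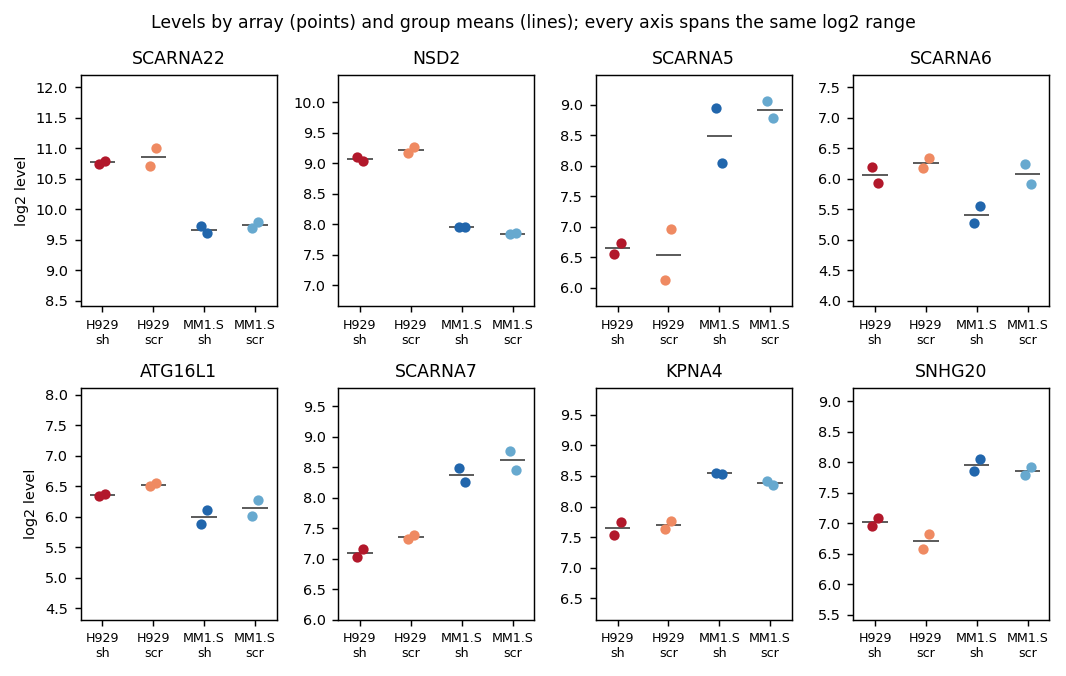
Log2 level by array (points) and group mean (lines) of SCARNA22 and NSD2, of SCARNA5, SCARNA6 and ATG16L1, of SCARNA7 and KPNA4, and of SNHG20, with NCI-H929 (H929) left of MM1.S and shSIRT6 (sh) left of scramble (scr). SCARNA22 and NSD2 are both higher in NCI-H929, while SCARNA5 is lower there and SCARNA6 and ATG16L1 are not.

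**Figure D4:**
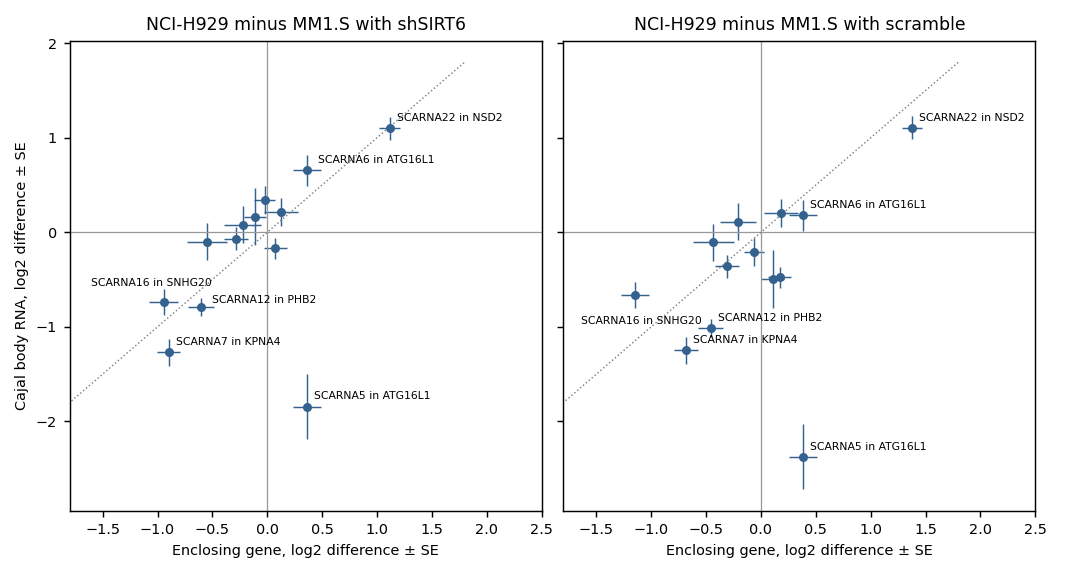
Log2 difference NCI-H929 minus MM1.S of 13 Cajal body RNAs (vertical axis) against that of the gene enclosing each (horizontal axis), with shSIRT6 on the left and scramble on the right, each ± SE, with the line of equal differences dotted. SCARNA22 lies near the line with shSIRT6, and SCARNA5 lies at −1.845 and −2.375 although ATG16L1 lies above 0.

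The genes whose levels most resembled those of GAS5 were found by Pearson correlation over the 8 arrays among all tested genes that are no members. They were IGF2BP3 (r = 0.999), FCRL2 (0.998), SASH1 (0.998), NDRG3 (0.998) and LOC729737 (0.997). Their line differences were 0.92 to 4.89 with shSIRT6 and 0.955 to 5.325 with scramble, and the 8 arrays are 2 clusters, 1 per line, so the correlation is a description only. Among the 33 genes, SCARNA22 (r = 0.976) and SNHG16 (0.973) were the most alike to GAS5, and SCARNA10 (−0.977) and SNHG20 (−0.969) the most opposed.

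The second comparison asked what the SIRT6 hairpin did in each line. None of the 33 genes passed the test: 0 were called in NCI-H929 (0.0236% of all genes were) and 0 in MM1.S (1.33%). At an unadjusted limma p below 0.05 there were 4 in NCI-H929 (12.1%, beside 14.5% of all genes) and 7 in MM1.S (21.2%, beside 19.6%), shares near those of all genes. With a trended, robust prior in limma, 0 of the 33 were called in NCI-H929 and 4 in MM1.S: SCARNA4, SCARNA6, SNHG33 and SNHG5, where 7.44% of all genes were called. The differences leaned to lower values with shSIRT6: 27 of 33 were negative in NCI-H929, beside 58.3% of all genes, and 24 of 33 in MM1.S, beside 49.1%. The median was −0.105 in NCI-H929, against −0.045 over all genes, and −0.165 in MM1.S, against 0.005. The median level of the 33 genes varied between replicates with an SD of 0.058 (log2). In NCI-H929 this level was 6.68 and 6.72 with shSIRT6 and 6.69 and 6.83 with scramble. The constructs overlapped there, so the lean in NCI-H929 is not set apart from spread between arrays. In MM1.S they did not overlap, with at most 7.07 with shSIRT6 and at least 7.29 with scramble. Renormalizing the arrays brought the median difference of the 33 genes in NCI-H929 to −0.0528 (cyclic loess) and −0.0541 (quantile). Centring the arrays on their medians brought it to −0.155. In MM1.S these settings gave −0.152, −0.138 and −0.22, in that order. The median over all genes is not given for these settings, so the lean relative to all genes is not shown there. In MM1.S the lean sat with the Cajal body RNAs, 19 of 23 negative with a median of −0.19, while the 10 hosts had 5 negative and a median of −0.0075. In NCI-H929, 20 of the 23 Cajal body RNAs and 7 of the 10 hosts were negative. Whether the Cajal body RNAs and hosts differ was not tested.

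In NCI-H929 the lowest p-values of the Cajal body RNAs were those of SCARNA17, SCARNA23 and SCARNA9. SCARNA17 read 8.71 and 8.61 with shSIRT6, against 8.96 and 8.91 with scramble, a difference of −0.275 ± 0.10 (limma adjusted p = 0.295). SCARNA23 read 3.93 and 3.93 with shSIRT6, against 4.59 and 4.17 with scramble, a difference of −0.45 ± 0.17 (limma adjusted p = 0.308). SCARNA9 had 9.72 and 9.76 with shSIRT6 and 9.38 and 9.57 with scramble, a difference of 0.265 ± 0.12 (limma adjusted p = 0.368). The constructs did not overlap for these 3 RNAs, but none passed the test.

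Of the hosts in NCI-H929, SNHG5, SNHG20 and SNHG15 had the lowest p-values. SNHG5 read 8.45 and 8.53 with shSIRT6, against 8.72 and 8.73 with scramble, a difference of −0.235 ± 0.092 (limma adjusted p = 0.318). SNHG20 had 6.95 and 7.08 with shSIRT6 and 6.58 and 6.83 with scramble, a difference of 0.31 ± 0.13 (limma adjusted p = 0.339). SNHG15 differed by −0.22 ± 0.16 (limma adjusted p = 0.561). GAS5 read 10.86 and 10.88 with shSIRT6 and 10.97 and 10.93 with scramble, a difference of −0.08, and SNHG18 differed by 0.

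In MM1.S the Cajal body RNAs SCARNA4, SCARNA6 and SCARNA14 had the lowest p-values. SCARNA4, a box H/ACA RNA within KHDC4, read 7.84 and 7.59 with shSIRT6, against 8.47 and 8.37 with scramble. Its difference was −0.705 ± 0.15 (limma adjusted p = 0.0711), and the constructs were further apart than the arrays of either group. KHDC4 itself differed by −0.165 (limma adjusted p = 0.369). SCARNA6 read 5.27 and 5.55 with shSIRT6 and 6.25 and 5.92 with scramble, a difference of −0.675 ± 0.16 (limma adjusted p = 0.093). SCARNA14 read 4.45 and 4.37 with shSIRT6 and 4.84 and 4.80 with scramble, a difference of −0.41 ± 0.11 (limma adjusted p = 0.113). All 4 RNAs with both box types had negative differences in MM1.S, with a median of −0.335, and 3 of the 4 did in NCI-H929, with a median of −0.08.

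SNHG33, SNHG5 and SNHG8 were the hosts of lowest p in MM1.S. SNHG33 read 6.70 and 6.81 with shSIRT6, against 7.72 and 7.33 with scramble, the most negative difference of the 33 genes there at −0.77 ± 0.18 (limma adjusted p = 0.0846). SNHG5 read 8.30 and 8.37 with shSIRT6 and 8.65 and 8.61 with scramble, a difference of −0.295 ± 0.092 (limma adjusted p = 0.15). SNHG8 had 9.07 and 9.08 with shSIRT6 and 8.87 and 8.95 with scramble, a difference of 0.165 ± 0.092 (limma adjusted p = 0.362). GAS5 differed by −0.08 in MM1.S too. With the trended, robust prior the limma adjusted p in MM1.S was 0.00265 for SCARNA4, 0.00924 for SNHG33, 0.0202 for SNHG5 and 0.0236 for SCARNA6.

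The constructs did not overlap, with shSIRT6 lower, for 12 of 33 genes in NCI-H929 (30% of all genes) and 13 of 33 in MM1.S (26.3%). They did not overlap with shSIRT6 higher for 4 genes in NCI-H929 (16.6% of all genes) and 2 in MM1.S (24.4%). In both lines 5 genes were lower without overlap (15.2%, beside 10.5% of all genes): SNHG5, SCARNA1, SCARNA10, SCARNA17 and SCARNA21. SCARNA21 had the most negative mean difference of these 5, at −0.42 in NCI-H929 and −0.425 in MM1.S. For SCARNA1 the differences were −0.265 in NCI-H929 and −0.185 in MM1.S, and for SCARNA10 −0.135 in NCI-H929 and −0.19 in MM1.S. SNHG8 was the 1 gene higher without overlap in both lines (3.03%, beside 4.99%). SCARNA20 was the 1 gene that went opposite ways without overlap (beside 9.05% of all genes). It read 4.81 and 5.07 with shSIRT6 against 5.19 and 5.60 with scramble in NCI-H929, and 4.31 and 4.89 with shSIRT6 against 4.25 and 3.60 with scramble in MM1.S.

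**Figure D5:**
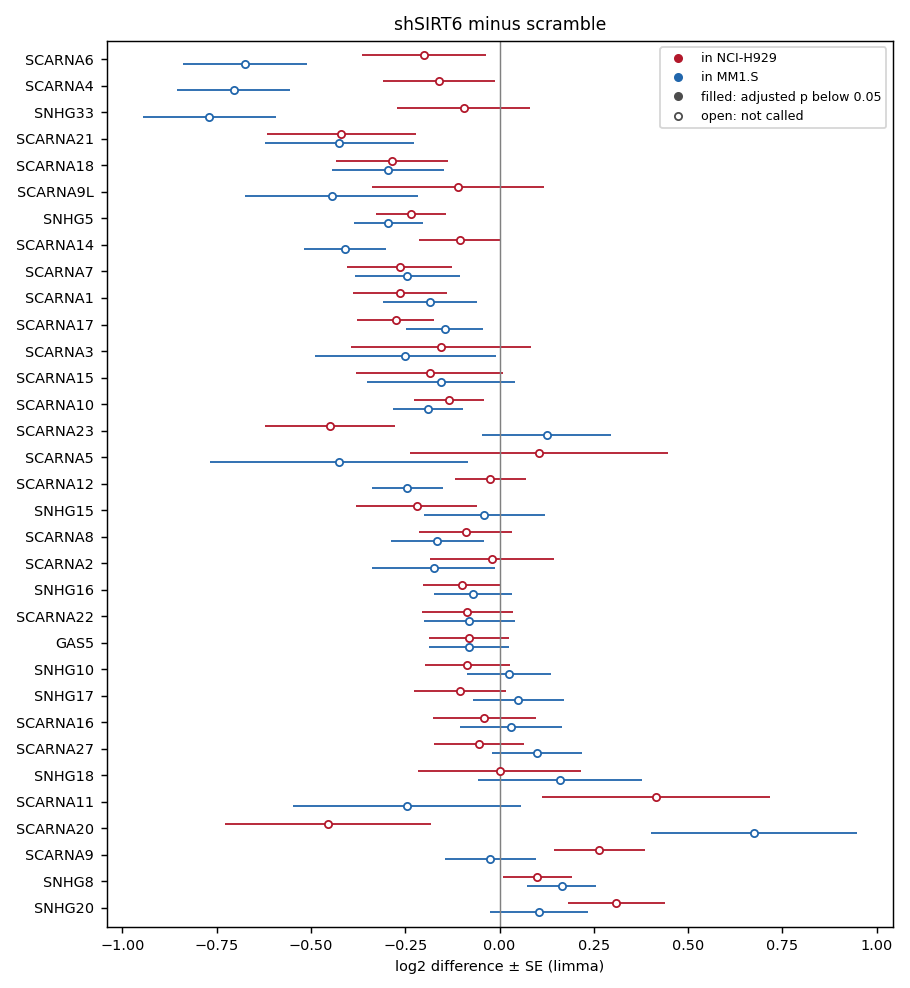
Log2 difference shSIRT6 minus scramble of the 33 genes (horizontal axis, limma estimate ± SE), in NCI-H929 in red and in MM1.S in blue, ordered by the mean of both lines. All points are open because none passed an adjusted p of 0.05, and most lie left of 0.

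Averaged over both lines, 0 of the 33 genes were called (0.0864% of all genes were), with 11 at an unadjusted limma p below 0.05 (33.3%, beside 21.3% of all genes), all 11 with lower values under shSIRT6. The lowest adjusted p-values were those of SCARNA4 (−0.432 ± 0.11, limma adjusted p = 0.0997), SNHG5 (−0.265 ± 0.065, 0.102), SCARNA6 (−0.438 ± 0.12, 0.115), SNHG33 (−0.432 ± 0.12, 0.128) and SCARNA14 (−0.258 ± 0.077, 0.135). SNHG20 had the highest mean difference of the hosts, at 0.207. With the trended, robust prior 5 were called, SCARNA4, SNHG5, SCARNA6, SNHG33 and SCARNA17 (limma adjusted p 0.00796 to 0.0389), where 7.13% of all genes were called. The median of the 33 genes was −0.135, against −0.0225 over all genes, and 26 of 33 were negative, beside 55% of all genes.

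The effect of the hairpin was also compared between the lines, as its difference in NCI-H929 minus that in MM1.S. No member was called (0 of 33, beside 0.204% of all genes), also with the trended, robust prior, and 4 had an unadjusted limma p below 0.05 (12.1%, beside 13.8%). SCARNA20 had the lowest p, with −1.13 ± 0.39 (limma adjusted p = 0.272). It was followed by SNHG33 (0.675 ± 0.25, limma adjusted p = 0.305), SCARNA4 (0.545 ± 0.21, 0.326) and SCARNA23 (−0.575 ± 0.24, 0.358). SNHG20 and SNHG17, the next hosts, differed by 0.205 and −0.155. The median over the 33 genes was 0.005, against −0.035 over all genes.

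The proteins that bind, assemble, transcribe, export and degrade these RNAs were taken from 9 lists of 112 genes, of which 73 were tested. Between the lines with shSIRT6, 19 were called higher (18.4% of all genes were) and 14 lower (19.5%) in NCI-H929. With scramble 23 were higher (20% of all genes were) and 13 lower (18.3%). The counts of single lists below stand beside these shares. With both constructs and 1 sign, 17 were higher (23.3%, beside 14.5% of all genes) and 7 lower (9.59%, beside 14.3%). The share called is 45.2% with shSIRT6 and 49.3% with scramble, beside 37.9% and 38.3% of all genes.

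The Sm core, the protein ring placed on spliceosomal RNAs by the SMN complex, leaned lower in NCI-H929. With shSIRT6, 6 of its 7 tested genes were called lower (median −0.59 over the 7), beside 19.5% of all genes. With scramble 2 were (median −0.42), beside 18.3% of all genes, and all 7 were negative under each construct. SNRPB differed by −1.20 ± 0.095 with shSIRT6 (limma adjusted p = 7.25e-05) and by −0.59 ± 0.095 with scramble (0.00199). SNRPD1 differed by −0.59 with shSIRT6 (limma adjusted p = 0.00239) and by −0.42 with scramble (0.0115). SNRPD2, SNRPD3, SNRPE and SNRPF were called with shSIRT6 only, at −0.42, −0.32, −0.71 and −0.59. Of these, SNRPD3 only just passed (limma adjusted p = 0.04997).

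Of the 10 tested genes of the Cajal body and SMN complex list, 3 were higher and 2 lower under each construct. Of all genes, 18.4% were higher and 19.5% lower with shSIRT6, and 20% and 18.3% with scramble. GEMIN5, which recognises the spliceosomal RNA for the SMN complex, was higher in NCI-H929 by 0.855 with shSIRT6 and 0.985 with scramble, and the helicase DDX20 by 0.745 and 0.64. STRAP, a partner of that complex, was lower by −1.14 and −1.045. GEMIN2 (0.865) and GEMIN7 (−0.36) were called with shSIRT6 only, and GEMIN4 (0.73) and GEMIN8 (−0.595) with scramble only.

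The 3 tested box C/D proteins were not called between the lines by limma (unadjusted p below 0.05 for 0 with shSIRT6 and 1 with scramble), and of the 5 tested box H/ACA proteins NHP2, a core protein, and SHQ1, a dyskerin chaperone, were higher. NHP2 differed by 0.61 with shSIRT6 and 0.865 with scramble, and SHQ1 by 0.655 and 0.455. Among the 8 tested assembly factors, PIH1D1 was higher by 0.805 with shSIRT6 and 0.99 with scramble, and NOPCHAP1 by 0.80 and 0.675. RUVBL1 (0.44) was called with shSIRT6 only, and RUVBL2 (0.605), NOLC1 (0.315) and RPAP3 (−0.39) with scramble only.

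Of the 15 tested genes for transcription and 3′ processing of spliceosomal RNAs, 5 were higher and 3 lower with shSIRT6 (18.4% and 19.5% of all genes). With scramble 5 were higher and 2 lower (20% and 18.3% of all genes). The Integrator subunits went both ways: INTS8 (1.235 with shSIRT6 and 1.13 with scramble), INTS3 (0.705 and 0.77) and INTS9 (0.545 and 0.385) were higher, INTS7 (−1.04 and −1.005) was lower, and INTS1 (−0.315) was called lower with shSIRT6 only. ICE2 was lower by −1.065 and −1.04, while ICE1 (0.815 and 0.73) and ELL (0.38 and 0.65), which act with it in the little elongation complex, were higher. Of the export and maturation genes, the export adaptor PHAX (0.67 and 0.535) and the import adaptor SNUPN (0.40 and 0.385) were higher with both constructs, and TENT4B (0.415), MEPCE (0.375), PARN (−0.315) and METTL4 (−0.42) were called with scramble only.

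The nuclear exosome trims and degrades these RNAs. Of the 13 tested genes of its list, 4 were higher and 3 lower with shSIRT6 (18.4% and 19.5% of all genes). With scramble 4 were higher and 4 lower (20% and 18.3% of all genes). RBM7 (1.185 with shSIRT6 and 1.07 with scramble), EXOSC5 (0.985 and 1.09), MTREX (0.60 and 0.51) and EXOSC4 (0.33 and 0.57) were higher. EXOSC9 (−0.50 and −0.415) and EXOSC7 (−0.37 and −0.32) were lower with both, EXOSC10 (−0.35) with shSIRT6 only, and EXOSC8 (−0.55) and EXOSC1 (−0.325) with scramble only. Of the nonsense-mediated decay list 2 genes were tested, and UPF1 was higher with scramble only (0.395).

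With the SIRT6 hairpin, 0 of the 73 listed genes were called in NCI-H929, in MM1.S, over both lines or between the lines. Of all genes, 0.0236%, 1.33%, 0.0864% and 0.204% were. At an unadjusted limma p below 0.05 the shares lay under those of all genes, and these gaps were not tested. There were 8 in NCI-H929 (11.0%, beside 14.5% of all genes), 10 in MM1.S (13.7%, beside 19.6%), 11 over both lines (15.1%, beside 21.3%) and 9 for the difference between the lines (12.3%, beside 13.8%). In NCI-H929 the lowest p-values were those of SNRPB (−0.415, limma adjusted p = 0.196), GEMIN7 (−0.46, 0.203) and GEMIN4 (−0.31, 0.26). In MM1.S they were those of the exosome gene EXOSC8 (−0.48, limma adjusted p = 0.0734), the methyltransferase gene METTL4 (−0.47, 0.0831) and EXOSC1 (−0.365, 0.116). DIS3 (−0.263) had the lowest p over both lines (limma adjusted p = 0.112), and SNRPB (−0.61) had the lowest p for the difference between the lines (0.157).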

How the data were processed

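The values deposited by the authors are on a log2 scale to 2 decimals, 1 row per transcript cluster (48226 rows, 8 array columns, 0 other columns of sample values). Per the submitters' processing notes they were made with RMA and the Transcriptome Analysis Console on hg19, with no versions given. Per the labels' protocols RNA was taken with a silica column kit and amplified with the WT PLUS Reagent Kit. Such columns recover short RNAs poorly, and the effect on RNAs of this length was not tested. Signals could not be set against background, since only summarised values were used, and the number of arrays limits the precision.

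Symbols came from the platform annotation (16098 rows with 1 symbol, 0 with several, 32128 unnamed). The row of highest mean was kept per gene and genes above the 30th percentile of row means, 3.045, were tested (12734). A model of 4 group means over the 8 arrays was fitted with limma 3.58.1, in R 4.3.3 (4 residual degrees of freedom), with Benjamini-Hochberg adjustment over all genes tested and a threshold of 0.05. For a single gene, 2 arrays against 2 cannot reach an exact p below 0.333. The script was tested on simulated data. All 33 members matched RefSeq (GRCh38.p14), which gave enclosing genes, host contents and start-site sequence (9 of 10 hosts). The members, lists and tests were chosen with earlier results of these data known. Genes named are SIRT6, all hosts, members and listed genes called, the lowest p per class and contrast, members whose constructs do not overlap in both lines, and the 5 genes most like GAS5. The genes enclosing the members were named after their values were seen. Alternatives were other filters, normalizations, priors, row choices and arrays, a replicate block, and leaving out each array.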

Additional observations from a re-analysis of the deposited data

How the results depend on the processing

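Of the called line differences of the 33 genes, 9 of 17 with shSIRT6 and 10 of 19 with scramble passed the threshold in all 18 alternatives, and none reversed. Both calls passed in all 18 for 8 genes: GAS5, SCARNA5, SCARNA7, SCARNA10, SCARNA12, SCARNA16, SCARNA22 and SNHG20. Between the lines with shSIRT6, fewer of the 33 genes were called without either replicate of MM1.S shSIRT6 or replicate 1 of NCI-H929 shSIRT6. With scramble, fewer were called without replicate 1 of MM1.S scramble or replicate 2 of NCI-H929 scramble. Fewer of all genes tested were called in these fits too, so a drop is not particular to the 33 genes. Whether theirs is larger was not tested. These fits rest on 1 array in a group, which is assumed to vary like the others. The median line difference ran from −0.14 (without replicate 1 of MM1.S shSIRT6) to 0.05 (without replicate 2) with shSIRT6, and from −0.325 (without replicate 2 of NCI-H929 scramble) to −0.195 with scramble, so the sign of the first rests on 1 array.

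For the hairpin, the trended, robust prior called 4 members in MM1.S and 5 over both lines, while calling 948 and 908 genes in all, against 169 and 11 in the fit reported. No other alternative called any. The median ran from −0.13 to −0.07 in NCI-H929, from −0.165 to −0.09 in MM1.S (−0.09 without replicate 1 of MM1.S scramble), from −0.1775 to −0.115 over both lines and from −0.01 to 0.075 between the lines (0.075 without replicate 2 of MM1.S scramble) when 1 array was left out. Quantile normalization again moved the median over both lines to −0.0742 and that in NCI-H929 to −0.0541, and cyclic loess moved that in NCI-H929 to −0.0528, against −0.105 as reported. Centring the arrays on their medians moved them the other way, to −0.1875 over both lines, −0.155 in NCI-H929 and −0.22 in MM1.S. With shSIRT6, cyclic loess moved the median line difference to −0.0354, against −0.07. No median over all genes is given for these settings. Of the members neither called nor singled out, 127 of 2148 alternative values changed sign.

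Deviations of same-numbered arrays showed little in common, with correlations of −0.00108 in NCI-H929 and 0.0767 in MM1.S. The labels do not say whether arrays of 1 replicate number belong together, and these correlations cannot settle it. With the number as a replicate block, 13 members were called between the lines with shSIRT6 and 18 with scramble. Of all genes tested, 4509 and 4590 were called, in that order. For the hairpin, 0 members were called in NCI-H929, in MM1.S, over both lines and between the lines. The block fit called 0 of all genes in these comparisons too, so the 0 is not particular to the members. The block ended the shSIRT6 calls of SCARNA6 (adjusted p 0.0524), SNHG15 (0.0569), SNHG8 (0.0665) and SCARNA8 (0.0854), and the scramble calls of SCARNA9 (0.0512) and SCARNA17 (0.0688). Adjusting over all rows, named or not, ended the same calls except that of SCARNA6 (adjusted p 0.0613 to 0.0795). Fitting only the arrays of the contrast ended those of SNHG15, SNHG8, SCARNA8, SCARNA9 and, with scramble, SNHG10 (0.0564 to 0.0962). The call of SCARNA17 was also lost with arrays centred on their medians (0.0507), that of SCARNA9 with no filter (0.0597) and with cyclic loess (0.0547), and that of SCARNA1 with the trended, robust prior (0.0563).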

Other observations

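Other short structural RNAs and an antisense partner of GAS5 had rows of their own and were looked at after their values were seen. TERC, the RNA template of telomerase and itself a box H/ACA RNA of the Cajal body, read 7.92 and 8.22 in NCI-H929 and 8.58 and 8.55 in MM1.S with shSIRT6, lower by −0.495 ± 0.12 (limma adjusted p = 0.0138). With scramble it read 8.07 and 8.15 in NCI-H929 and 8.73 and 8.79 in MM1.S, lower by −0.65 ± 0.12 (limma adjusted p = 0.00389). RPPH1, the RNA of RNase P, was higher in NCI-H929 by 0.575 ± 0.13 with shSIRT6 (limma adjusted p = 0.00962) and by 0.475 ± 0.13 with scramble (limma adjusted p = 0.0216). RMRP, the related RNA of RNase MRP, lay between 12.3 and 12.6 on all 8 arrays and differed between the lines by −0.135 with each construct (not called). GAS5-AS1, annotated opposite GAS5, read 5.51 and 5.93 in NCI-H929 and 4.86 and 4.75 in MM1.S with scramble, higher by 0.915 ± 0.17 (limma adjusted p = 0.00383), and differed by 0.365 with shSIRT6 (limma adjusted p = 0.133). None of these 4 was called for the SIRT6 hairpin in either line.

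The RNAs SCARNA10 and SCARNA12, both of which carry both box types and lie close together on chromosome 12 in the genes NCAPD2 and PHB2, did not differ equally between the lines. The level of SCARNA10 minus that of SCARNA12 within an array lay between −1.02 and −0.81 in the 4 NCI-H929 arrays and between −0.37 and −0.22 in the 4 MM1.S arrays. The line difference of SCARNA10 was thus 0.607 more negative (exact permutation p = 0.0556, the smallest the design can give), and this pair was chosen after its values were seen.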
